A study of Arabidopsis thaliana with 18 samples.

Results

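A set of 6 genes of sugar movement and sugar cleavage was followed in Arabidopsis thaliana roots: SWEET3 (AT5G53190), SWEET11 (AT3G48740), SWEET13 (AT5G50800), SAG29 (AT5G13170, also called SWEET15), SWEET17 (AT4G15920) and cwINV6 (AT5G11920). They were chosen by their gene identifiers in the annotation of the Affymetrix ATH1 array, where each has 1 probe set of its own, and make up 6 of the 22746 probe sets that are not controls. The choice was made with earlier results of these data known. Roots of the wild type ecotypes Col-0 and WS were compared after growth at 3 angles of the growth plate (Agp), with 3 arrays for each of the 6 combinations and 18 arrays in all. All seedlings grew on solid 0.5x MS plates in continuous light, were 8 days old at harvest, were fixed in RNAlater and carried no mutation or transgene. Plates at Agp 45° (tilted backward) and Agp 135° (tilted forward) had stood upright for 3 days and then tilted for 5 days, and plates at Agp 90° stood upright for all 8 days. Each array held pooled RNA of 5 dissected roots, so a p-value below measures the spread between pools, which nothing in the labels ties to separate experiments.

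SWEET proteins are membrane carriers that let sugars pass down their concentration gradient in either direction, and are found in the plasma membrane and in the vacuole membrane (tonoplast). SWEET11, SWEET13 and SAG29 belong to the branch of the family that carries sucrose out of cells, a step known from phloem loading in leaves and from sugar supply to seeds, whereas SWEET17 moves fructose across the tonoplast and is well known from roots. Cell wall invertases split the sucrose that reaches the wall into glucose and fructose. cwINV6 carries that family name, but RefSeq lists it as a fructan exohydrolase, an enzyme that trims fructose from fructans. The name alone does not show that it splits sucrose, and its activity was not tested here.

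Signals are MAS5 values on a linear scale as the authors deposited them, and the trimmed mean of every array was 500. Log2 fold changes were computed on log2(signal + 32) after quantile normalization, so changes of signals near or under 32 are understated; of the 6 genes only SWEET3 had an array under that value. "Adjusted p" is limma's moderated two-sided test with Benjamini-Hochberg adjustment over 22746 probe sets, a gene is said to have changed only where it was under 0.05, and fold changes are followed by their standard error (SE). Pearson's r across probe sets was at least 0.986 between arrays of a group and 0.968 to 0.976 between ecotypes. The actin 3'/5' signal ratio, which goes up with RNA breakdown, was 6.06 on replicate 2 of upright Col-0 roots and 6.05 on replicate 3 of upright WS roots, against 3.85 to 4.76 on the other arrays. Of the marker lists only EXPA7 and CO2 (2 of 8 root markers) and RCA (1 of 12 shoot markers) have a named probe set, and 0 of 11 phloem and 0 of 6 xylem markers do, so the levels of these vascular cells could not be checked here. EXPA7, from root hair cells, had a signal of at least 255 on every array, and CO2, from the cortex, of at least 68.6. RCA, a leaf gene of photosynthesis, ranged between 649 and 1454. In RNA from whole roots, fewer cells of a type and less RNA per cell cannot be told apart. Whether the probes match the sequences of both ecotypes equally was not tested.

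Levels of SWEET3, SWEET11, SWEET13 and cwINV6 were lower in Col-0 roots than in WS roots over the 3 angles together, by log2 fold changes between -0.60 and -1.43, where 16% of all probe sets passed as lower. SAG29 and SWEET17 did not pass the test. For SWEET3 and cwINV6 all 9 Col-0 arrays lay below all 9 WS arrays, as for 2.81% of all probe sets. None of the 6 genes passed the test for either tilt in either ecotype, where between 0% and 0.985% of all probe sets did. SWEET11 had the highest log2 fold change of all 22746 probe sets in WS roots at Agp 45° with the pseudocount of 32, and also one of the widest spreads between arrays of a group, mainly in Col-0 at Agp 90° and Agp 135°. The plot of signals on single arrays shows both features.

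**Figure D1:**
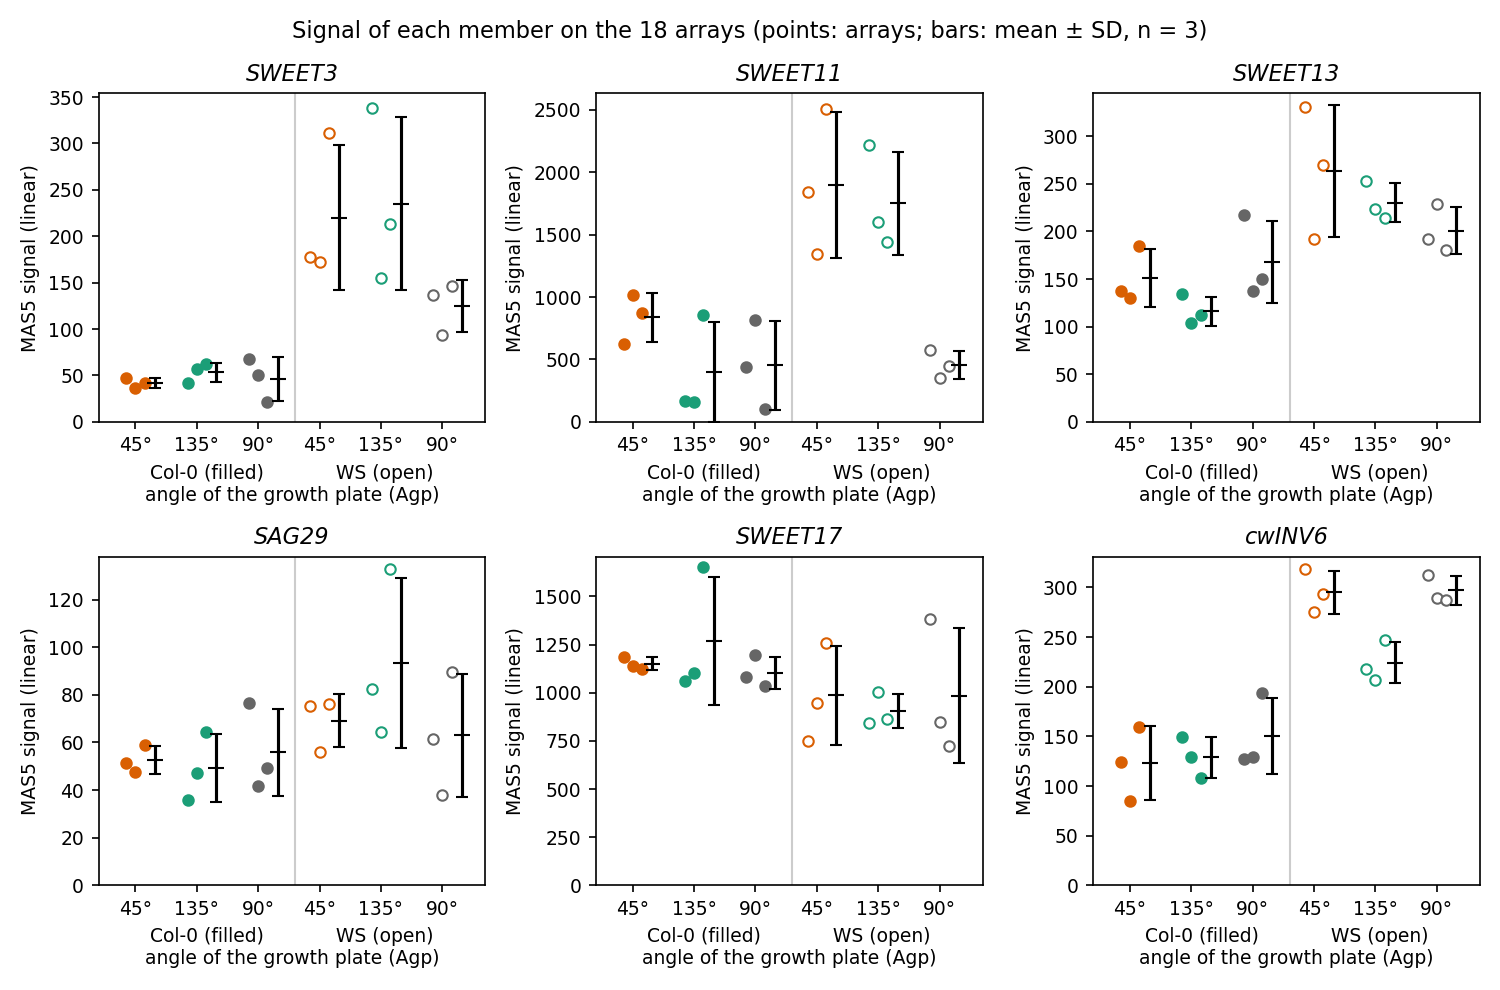
MAS5 signal (linear scale, vertical axes) of each gene on the 18 arrays, with Col-0 left and WS right of the grey line and the tilted plates left of the upright ones. Points are arrays, with the mean and SD of 3 arrays beside them; all 9 Col-0 arrays lie below all 9 WS arrays for SWEET3 and cwINV6, and SWEET11 spans 102 to 1013 in Col-0 and 353 to 2505 in WS.

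SWEET11, the plasma membrane sucrose exporter, differed most between tilted and upright WS roots among the 6 genes. In WS roots its signal was 1844, 1344 and 2505 at Agp 45°, 2218, 1599 and 1438 at Agp 135°, and 576, 353 and 444 at Agp 90°. All 6 tilted WS arrays therefore stood above all 3 upright ones. With each tilt taken alone, 8.23% of all probe sets were separated in this direction at Agp 45° and 8.83% at Agp 135°. In Col-0 roots the signal was 626, 1013 and 874 at Agp 45°, 169, 160.5 and 859.9 at Agp 135°, and 438, 815 and 102 at Agp 90°. The Col-0 groups overlapped, and at Agp 135° a single array was about as high as those at Agp 45° while the other 2 were near the lowest upright one.

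The mean SWEET11 signal was 1898 ± 583 in WS roots at Agp 45° and 458 ± 112 at Agp 90° (SD, n = 3 each), a log2 fold change of 1.94 (SE 0.584, 95% interval 0.70 to 3.18). This was the highest of 22746, and limma's adjusted p was 0.15. In WS roots at Agp 135° the mean was 1752 ± 412 and the log2 fold change 1.87 (SE 0.584, adjusted p = 0.247), which ranked 3 of 22746. These comparisons share the upright arrays. Their SE rests on 1 spread fitted to all 6 groups, so it also carries the wider spread of SWEET11 in Col-0. Under the alternatives tried, the adjusted p was never under 0.0534 at Agp 45° or 0.141 at Agp 135°. In the tilt comparisons of WS, 0.985% of all probe sets passed the test in either direction at Agp 45° and 0.0528% at Agp 135°, and 0 of the 6 genes did at either angle. With a pseudocount of 1 in place of 32 the SWEET11 fold changes were 2.01 and 1.94 and ranked 74 and 90, so the rank but not the size depended on how dim probe sets were treated. Without both arrays of high actin ratio they were 1.95 and 1.88.

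In Col-0 roots at Agp 45° SWEET11 averaged 838 ± 196, against 452 ± 356 at Agp 90°, with a log2 fold change of 1.18 (SE 0.584, adjusted p = 0.695). The value lay between 0.44 and 1.75 when each array was left out in turn: it was 0.44 without replicate 3 of the upright group, the array with a signal of 102, and 1.75 without replicate 2, which had a signal of 815 and the high actin ratio. At Agp 135° the Col-0 mean was 396 ± 401 and the log2 fold change -0.21 (SE 0.584, adjusted p = 0.972), a sign that turned with single arrays. In Col-0, 0.022% of all probe sets passed at Agp 45° and 0% at Agp 135°, and 0 of the 6 genes. Between the tilts, SWEET11 in Col-0 differed by 1.39 (Agp 45° over Agp 135°, SE 0.584, adjusted p = 1), and in WS by 0.07 (adjusted p = 0.988). The Col-0 value was the highest of all probe sets but ranked 208 with a pseudocount of 1, and it lay between 1.02 and 2.12 with single arrays left out. Between the tilts 0% of all probe sets passed in Col-0 and 0.356% in WS, and 0 of the 6 genes in either.

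Whether tilt acted differently on SWEET11 in the ecotypes was tested as an interaction, namely the tilt effect in WS less that in Col-0. It was 2.08 at Agp 135° (SE 0.825, 95% interval 0.32 to 3.83, adjusted p = 0.685), and 0.76 at Agp 45° (SE 0.825, 95% interval -0.99 to 2.51, adjusted p = 0.863). With single arrays left out it lay between 1.51 and 2.82 at Agp 135° and between 0.19 and 1.5 at Agp 45°, the lower end without replicate 2 and the upper end without replicate 3 of upright Col-0 roots at both angles. The value at Agp 135° ranked 3 and that at Agp 45° ranked 109 of 22746, or 213 and 1847 with a pseudocount of 1, and 0% of all probe sets passed the test in either. The intervals are wide because the SD of SWEET11 around its group means was 0.807 on the log2 scale, which only 6 probe sets exceeded and against which the median of all probe sets was 0.173. By group the SD was 1.34 in Col-0 at Agp 90° and 1.26 at Agp 135°. It was 0.34 in Col-0 at Agp 45° and between 0.32 and 0.43 in the WS groups. The shared spread is narrower than that of Col-0 at Agp 90° and Agp 135°. Any SWEET11 comparison with either of these groups therefore has a smaller SE than the groups' own spreads would give. The interval of 0.32 to 3.83 may thus be too narrow. Over both ecotypes together, SWEET11 at Agp 45° differed from Agp 90° by 1.56 (SE 0.413, adjusted p = 0.0961), the highest of all probe sets (rank 25 with a pseudocount of 1), where 0.91% of them passed. That adjusted p was 0.0368 without replicate 2 of upright Col-0 roots and 0.0422 without the 40% dimmest probe sets. At Agp 135° the pooled value was 0.83 (SE 0.413, adjusted p = 0.499), where 0.0044% of all probe sets passed, and it was 0.46 without replicate 3 and 1.12 without replicate 2 of upright Col-0 roots.

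**Figure D2:**
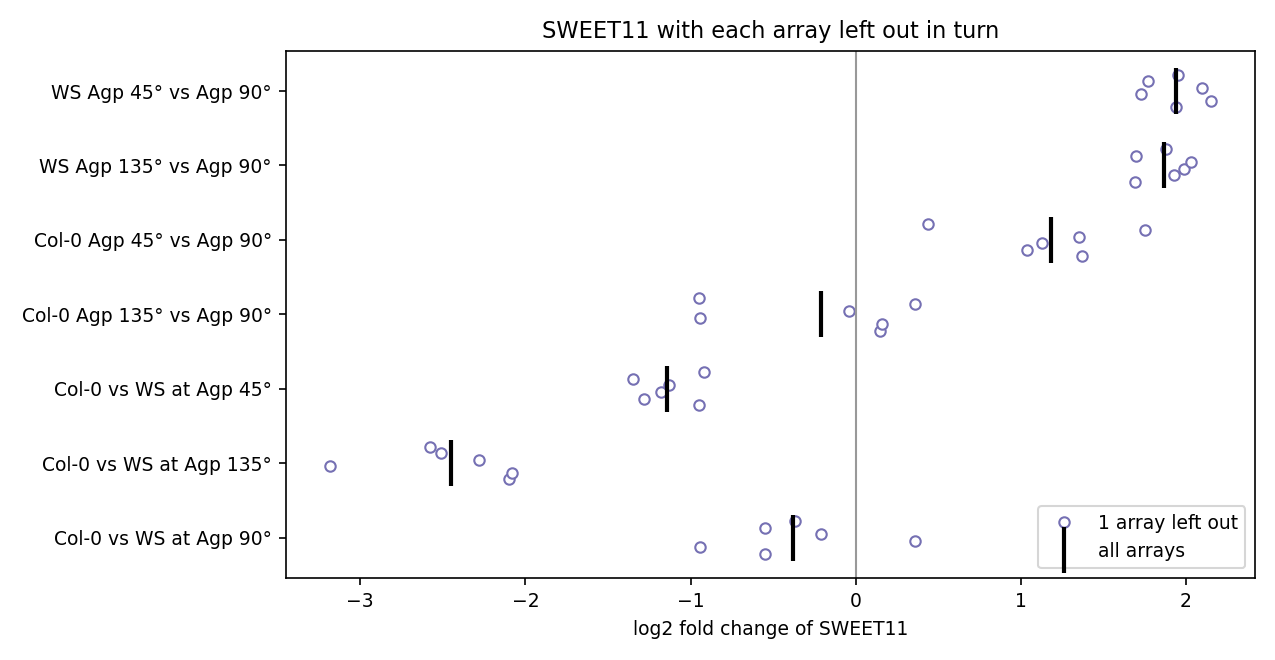
Log2 fold change of SWEET11 (horizontal axis) in 4 tilt comparisons and 3 ecotype comparisons, with all arrays (bars) and with each array of the compared groups left out in turn (open circles). The values in tilted WS roots stay between 1.69 and 2.15, those in Col-0 at Agp 45° spread between 0.44 and 1.75, and those in Col-0 at Agp 135° and between upright ecotypes fall on both sides of 0.

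Between the ecotypes SWEET11 was lower in Col-0 at Agp 135°, by a log2 fold change of -2.45 (SE 0.584, 95% interval -3.69 to -1.21, adjusted p = 0.00955), or 0.182 times the WS level on that scale, where 6.3% of all probe sets passed as lower. Every Col-0 array at that angle was below every WS array, with the highest Col-0 array at 859.9 and the lowest WS array at 1438, a separation that 18.8% of all probe sets had. The call was lost without replicate 2 of Col-0 at Agp 135° (-2.08, adjusted p = 0.0536). Its SE also comes from the shared spread, which is narrower than the spread of SWEET11 in this Col-0 group. At Agp 45° the arrays were also apart, as for 18.1% of all probe sets, with Col-0 at most 1013 and WS at least 1344, and the difference was -1.14 (SE 0.584, adjusted p = 0.239). At Agp 90° the Col-0 and WS arrays overlapped and the difference was -0.38 (SE 0.584, adjusted p = 0.765). Over all angles it was -1.32 (SE 0.337, adjusted p = 0.0071). The order of group means was WS at Agp 45° and Agp 135°, which overlapped, then Col-0 at Agp 45°, then WS at Agp 90°, Col-0 at Agp 90° and Col-0 at Agp 135°, of which each overlapped with the next.

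SWEET13, another sucrose carrier of the same branch, passed the ecotype test at both tilts and not on upright plates. Its signal was 137, 129.8 and 185 in Col-0 roots at Agp 45°, against 331, 192 and 270.1 in WS roots. At Agp 135° it was 134, 104 and 112 in Col-0 and 253, 224 and 214 in WS. At Agp 90° it was 217, 137 and 149.8 in Col-0 and 192, 229 and 181 in WS. The ecotypes thus stood apart at both tilts and overlapped when upright. Of all probe sets, 18.1% at Agp 45° and 18.8% at Agp 135° were apart as lower in Col-0. The log2 fold change of Col-0 over WS was -0.73 at Agp 45° (SE 0.171, adjusted p = 0.00884), -0.82 at Agp 135° (SE 0.171, adjusted p = 0.00366) and -0.25 at Agp 90° (SE 0.171, adjusted p = 0.407). The call at Agp 45° was lost when only the compared groups were fitted (adjusted p = 0.0599). The interaction, which tests whether the angles differ in this, did not pass at Agp 45° (0.48, SE 0.241, adjusted p = 0.681) or at Agp 135° (0.57, SE 0.241, adjusted p = 0.686). Within Col-0, all 3 arrays at Agp 135° lay below the 3 upright ones, which 6.06% of all probe sets did, with a log2 fold change of -0.41 (SE 0.171, adjusted p = 0.732). In WS the values against upright roots were 0.36 at Agp 45° (adjusted p = 0.41) and 0.15 at Agp 135° (adjusted p = 0.815). The groups formed a continuous order, WS above Col-0, in which each overlapped with the next.

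SAG29 belongs to the same branch and is named for its rise in senescing leaves. It was dim, with a mean signal of 63.8 over all arrays that put it among the 40% dimmest probe sets. Its signal was 51.2, 47.5 and 59 in Col-0 and 75.2, 56.1 and 76.2 in WS at Agp 45°. At Agp 135° it was 35.8, 47.2 and 64.3 in Col-0 and 82.5, 64.6 and 133 in WS. At Agp 90° it was 76.5, 41.8 and 49.3 in Col-0 and 61.6, 37.8 and 89.5 in WS. The ecotypes stood apart only at Agp 135°, where the highest Col-0 array was 64.3 and the lowest WS array 64.6. A separation in this direction was seen for 18.8% of all probe sets. The SAG29 difference of Col-0 from WS at Agp 135° was -0.54 (SE 0.209, adjusted p = 0.108), or -0.33 without replicate 3 of WS at that angle, and over all angles -0.27 (SE 0.121, adjusted p = 0.107). The 4 tilt comparisons of SAG29 gave log2 fold changes between -0.10 (Col-0, Agp 135°) and 0.37 (WS, Agp 135°), with adjusted p-values of 0.564 or more.

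SWEET3 belongs to another branch of the family. Its signal in Col-0 roots was 47.5, 36.1 and 41.4 at Agp 45°, 42.2, 56.6 and 62 at Agp 135°, and 67.9, 50.4 and 21.1 at Agp 90°. In WS roots it was 178, 172 and 311 at Agp 45°, 338, 155 and 213 at Agp 135°, and 137, 93.2 and 146 at Agp 90°. No Col-0 array reached the lowest WS array, since the 9 Col-0 arrays ended at 67.9 and the 9 WS arrays began at 93.2. SWEET3 was lower in Col-0 by a log2 fold change of -1.71 at Agp 45° (SE 0.255, adjusted p = 0.000214), -1.56 at Agp 135° (SE 0.255, adjusted p = 0.000485), -1.02 at Agp 90° (SE 0.255, adjusted p = 0.0134) and -1.43 over all angles (SE 0.147, adjusted p = 1.49e-06). On the deposited signals the mean over all Col-0 arrays was 47.2 ± 14.2, against 194 ± 81.2 in WS (SD, n = 9 each), a larger ratio than the log2 fold change gives because the Col-0 signals are near the pseudocount. The call at Agp 90° was lost when replicate 3 of either upright group was left out (adjusted p = 0.0687 without the Col-0 array and 0.0631 without the WS array), and without both arrays of high actin ratio (adjusted p = 0.0871).

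In tilted WS roots the SWEET3 arrays stood above the upright ones at both angles, as for 8.23% of all probe sets at Agp 45° and 8.83% at Agp 135°. The log2 fold change was 0.69 at Agp 45° (SE 0.255, adjusted p = 0.271) and 0.71 at Agp 135° (SE 0.255, adjusted p = 0.329), so neither passed. Without the highest array of the tilted group, the value was 0.46 at Agp 45° and 0.44 at Agp 135°. In Col-0 it was -0.01 at Agp 45° (SE 0.255, 95% interval -0.55 to 0.53) and 0.16 at Agp 135° (SE 0.255, 95% interval -0.38 to 0.70). The interaction was 0.70 at Agp 45° (SE 0.36, adjusted p = 0.682) and 0.55 at Agp 135° (SE 0.36, adjusted p = 0.833).

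SWEET17, the tonoplast fructose carrier, had the narrowest range of the 6 genes, its highest array being 2.29 times its lowest. Its signal was 1188, 1138 and 1126 in Col-0 and 750.1, 948 and 1261 in WS at Agp 45°. At Agp 135° it was 1059, 1101 and 1654 in Col-0 and 845, 1006 and 864 in WS. At Agp 90° it was 1082, 1196 and 1034 in Col-0 and 1383, 847 and 723 in WS. The ecotypes stood apart only at Agp 135°, with Col-0 the higher, as for 13.4% of all probe sets. The log2 fold change of Col-0 over WS was 0.43 at that angle (SE 0.214, 95% interval -0.03 to 0.88, adjusted p = 0.228) and 0.28 over all angles (SE 0.124, 95% interval 0.02 to 0.54, adjusted p = 0.104). It was the only gene of the 6 with a positive value in the ecotype comparisons. Its tilt comparisons lay between -0.06 and 0.17, with 95% intervals that reached no further than -0.51 and 0.63.

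cwINV6, the wall enzyme, was lower in Col-0 roots at every angle. Its signal in Col-0 roots was 124, 84.9 and 159 at Agp 45°, 149.9, 129 and 108 at Agp 135°, and 127, 129 and 194 at Agp 90°. In WS roots it was 319, 275 and 293 at Agp 45°, 218, 207 and 247 at Agp 135°, and 313, 289 and 287 at Agp 90°. All 9 Col-0 arrays, of which the highest was 194, lay below all 9 WS arrays, of which the lowest was 207. The log2 fold change of Col-0 over WS was -1.15 at Agp 45° (SE 0.159, adjusted p = 0.000109), -0.68 at Agp 135° (SE 0.159, adjusted p = 0.00857), -0.89 at Agp 90° (SE 0.159, adjusted p = 0.00112) and -0.90 over all angles (SE 0.0917, adjusted p = 1.27e-06). Each of these calls held under every alternative tried.

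Within WS, cwINV6 had the opposite order to SWEET11 and SWEET3 at Agp 135°. All 3 WS arrays there lay below the 3 upright ones, which 7.09% of all probe sets did, with a log2 fold change of -0.37 (SE 0.159, adjusted p = 0.422). They also lay below the 3 arrays at Agp 45°, where Agp 45° over Agp 135° gave 0.40 (SE 0.159, adjusted p = 0.402) and 6.67% of all probe sets were separated in that direction. At Agp 45° the WS value against upright roots was 0.03 (SE 0.159, 95% interval -0.31 to 0.36). In Col-0 the values were -0.23 at Agp 45° (adjusted p = 0.801) and -0.17 at Agp 135° (adjusted p = 0.888), and the Col-0 groups overlapped.

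**Figure D3:**
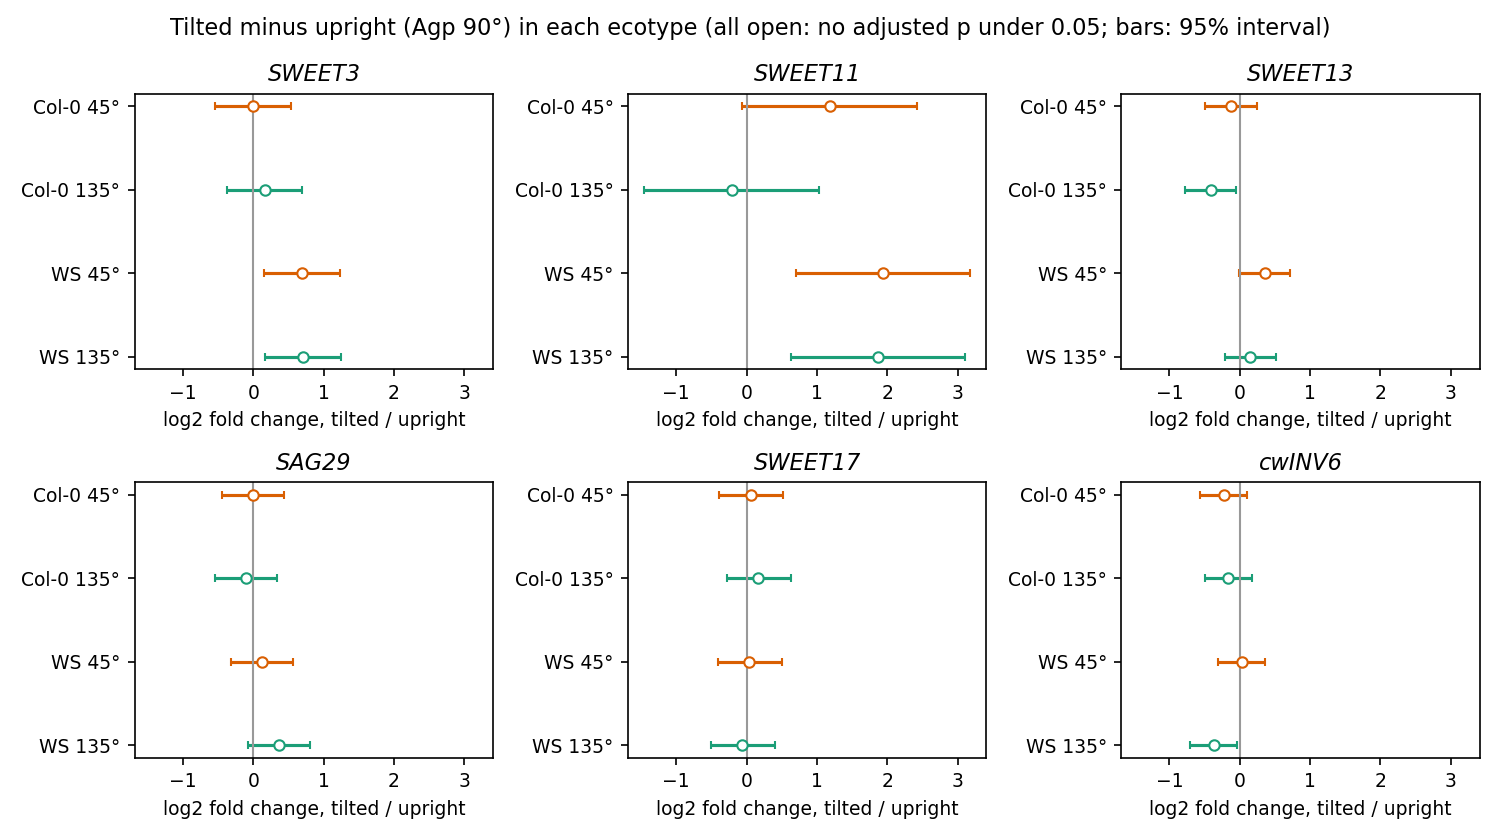
Log2 fold change of tilted over upright (Agp 90°) roots in each ecotype (horizontal axes), with the 95% interval from limma, for the 6 genes. Every symbol is open because no adjusted p was under 0.05; SWEET11 in WS lies at 1.94 and 1.87 with intervals clear of 0, and the 4 values of SWEET17 lie between -0.06 and 0.17.

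Counted over the 6 genes, 3 passed the ecotype test as lower in Col-0 at Agp 45° (SWEET3, SWEET13 and cwINV6), where 5.9% of all probe sets did. At Agp 135° 4 passed, SWEET11 in addition, against 6.3% of all probe sets. At Agp 90° 2 passed (SWEET3 and cwINV6), against 6.36%, and these were also the 2 whose arrays stood apart there as lower in Col-0, against 14.3%. Over all angles 4 passed, against 16%, and 0 of the 6 passed as higher in Col-0 in any of these comparisons, where 7.06% (Agp 45°), 7.19% (Agp 135°), 6.76% (Agp 90°) and 12.9% (all angles) of all probe sets did. The median log2 fold change of the 6 genes was -0.93 at Agp 45°, -0.75 at Agp 135°, -0.31 at Agp 90° and -0.75 over all angles, whereas the median of all probe sets over all angles was -0.0311. Because the 6 genes were chosen with earlier results of these data known, these counts and medians describe only the chosen genes. Of all 16 SWEET genes with a named probe set, 3 passed as lower and 2 as higher in Col-0 over all angles. Their median was -0.16. Both root markers with a probe set were higher in Col-0 over all angles, EXPA7 by 0.44 (adjusted p = 0.0315) and CO2 by 0.35 (adjusted p = 0.047). Neither passed at any single angle. Summed levels of a marker list could not be compared because so few markers are named. RCA differed by 0.16 (adjusted p = 0.523). The part of cell makeup in the ecotype differences was not tested.

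**Figure D4:**
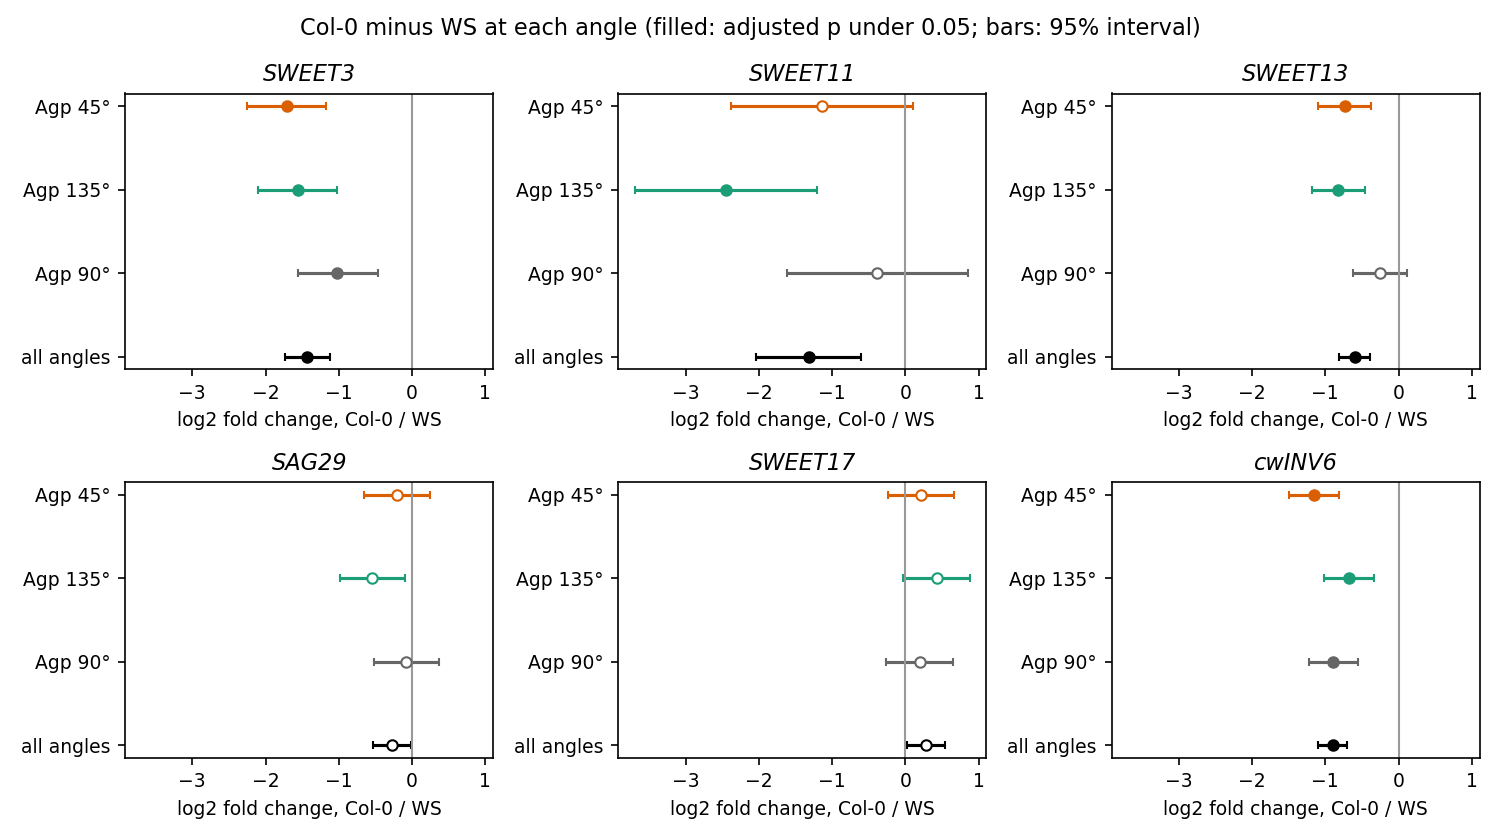
Log2 fold change of Col-0 over WS (horizontal axes) with 95% intervals at each angle and over all angles, for the 6 genes. Filled symbols have an adjusted p under 0.05: SWEET3 and cwINV6 are filled throughout, SWEET13 and SWEET11 at Agp 135° and over all angles, SWEET13 also at Agp 45°, and SAG29 and SWEET17 nowhere.

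Of 58 other genes of sugar transport and cleavage on the lists, 19 have a named probe set and the rest were not analysed here. These are 11 of 12 other SWEET genes, 4 of 14 hexose transporters, 3 of 6 tonoplast sugar carriers and 1 of 11 invertases and inhibitors, with 0 of 9 sucrose transporters and 0 of 6 sucrose synthases. None of the 19 passed the test for tilt in either ecotype, where between 0% and 0.985% of all probe sets did. Over all angles 3 were higher in Col-0 (SWEET2, SWEET16 and VINV1), a share near the 12.9% of all probe sets, and 0 were lower, against 16%.

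SWEET2, a tonoplast sugar carrier of roots, had a signal of 299, 286 and 185 in Col-0 and 114, 117 and 107 in WS at Agp 45°. At Agp 135° it was 203, 247 and 290.2 in Col-0 and 150.3, 129 and 150.3 in WS, and at Agp 90° 189, 193 and 172 in Col-0 and 97.3, 99.9 and 118 in WS. Its 9 Col-0 arrays all lay above its 9 WS arrays, as did those of 4.94% of all probe sets. The log2 fold change over all angles was 0.74 (SE 0.0826, adjusted p = 3.89e-06), and it passed at each angle (0.92, 0.66 and 0.64 at Agp 45°, Agp 135° and Agp 90°). SWEET2 thus ran opposite to SWEET3, SWEET11 and SWEET13. SWEET16, a tonoplast carrier close to SWEET17, was higher in Col-0 at Agp 135° (0.82, SE 0.192, adjusted p = 0.00854) and over all angles (0.39, SE 0.111, adjusted p = 0.0149). VINV1, a vacuolar invertase, was higher by 0.36 at Agp 135° (SE 0.0893, adjusted p = 0.0135) and by 0.26 over all angles (SE 0.0516, adjusted p = 0.000969). STP5, listed among the hexose transporters, was lower in Col-0 at Agp 45° only (-0.46, SE 0.139, adjusted p = 0.0382).

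**Figure D5:**
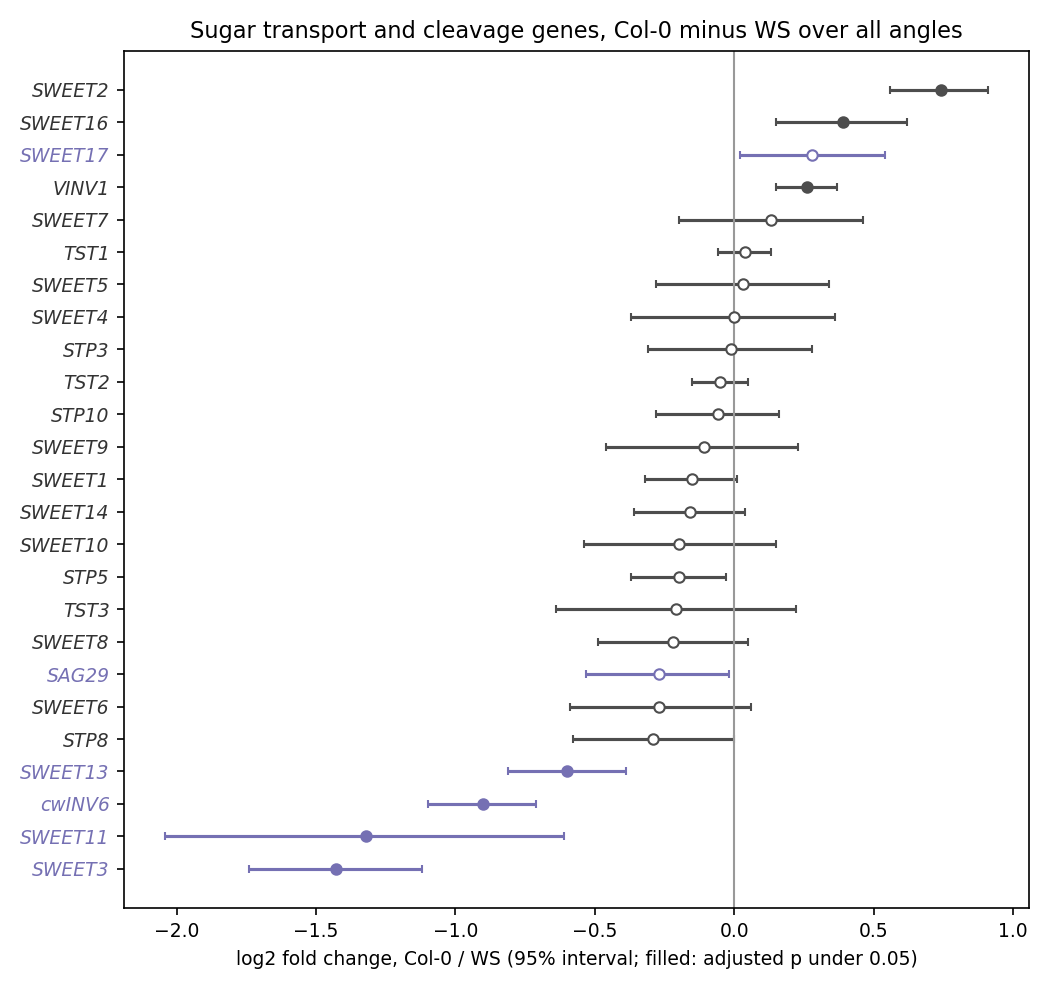
Log2 fold change of Col-0 over WS over all angles (horizontal axis, 95% intervals) for the 6 genes (violet) and the 19 other listed genes (grey), sorted by value, with filled symbols for an adjusted p under 0.05. SWEET3, SWEET11, cwINV6 and SWEET13 hold the low end, between -1.43 and -0.60, and SWEET2 the high end at 0.74.

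Likeness between genes was described by Pearson's r of log2 values over the 18 arrays, which share ecotypes, angles and pools, and by r of the deviations from the 6 group means. SWEET11 and SWEET3 had r = 0.73 over the arrays, 0.572 for the deviations, 0.403 over the 9 Col-0 arrays and 0.847 over the 9 WS arrays. SWEET11 and cwINV6 had r = 0.297 over the arrays and -0.589 for the deviations. The deviations of SWEET11 were widest in Col-0 at Agp 90° and Agp 135° (SD 1.34 and 1.26 on the log2 scale). Those arrays therefore weigh heavily in its r for deviations, which need not hold for pools in general. For this pair r was -0.643 over the 9 Col-0 arrays and -0.353 over the 9 WS arrays. The r values within an ecotype are not of deviations and include differences between angles. SWEET3 and SWEET13 had r = 0.759 over the arrays and 0.157 for the deviations, a likeness that lay in the group means.

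Genes were then picked for their likeness to each of the 6. Among 7644 other probe sets of 1 gene with a mean signal of at least 100, the one most like SWEET11 was that of BGLU45, a beta-glucosidase, with r = 0.923 and 0.88 for the deviations. In Col-0 roots BGLU45 averaged 215 ± 13.9 at Agp 45°, 174 ± 48.6 at Agp 135° and 163 ± 60.1 at Agp 90°. In WS roots it averaged 272 ± 8.01 at Agp 45°, 265 ± 10.7 at Agp 135° and 210.3 ± 24.5 at Agp 90° (SD, n = 3 each). BGLU45 was picked for its r on these same arrays, so a like order of group means follows from the choice. In both genes the highest mean of each ecotype was at Agp 45°, and in WS the lowest was at Agp 90°. The WS arrays at Agp 45° and Agp 135° overlapped in both. In Col-0 the lowest mean was at Agp 135° for SWEET11 and at Agp 90° for BGLU45. AT5G46840 (r = 0.89, deviations 0.71) and AT2G41250 (r = 0.87, deviations 0.85) came next. The gene most like SWEET3 was AT3G45770 (r = 0.94), most like cwINV6 AT3G51450 (r = 0.945), most like SWEET13 AT2G24310 (r = 0.856), most like SAG29 AT3G19200 (r = 0.8) and most like SWEET17 AT4G08330 (r = 0.768).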

How the data were processed

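RNA of 5 roots per array was hybridized to 18 Affymetrix ATH1 arrays. The authors deposited MAS5 intensity values made in Affymetrix Expression Console (version not given in the sources used here), on a linear scale and already scaled between arrays. The study's own tests used RMA values. They selected genes on a fold change cutoff together with an unadjusted p-value, and marked those that also passed a false discovery rate. None of this was used here. A pseudocount of 32 was added, log2 values were quantile normalized, 64 control probe sets were left out, and a mean for each of 6 groups was fitted to 22746 probe sets with limma 3.58.1 in R 4.3.3 (12 residual and 3.45 prior degrees of freedom), in 14 comparisons. The steps were tested on simulated data. The annotation gives 1 gene to 13513 probe sets (13436 matched in RefSeq by identifier), several to 503 and none to 8730. Those without a single gene were tested but not named. The number of arrays limits the precision.

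All 6 genes are given throughout. Of the other lists, genes with an adjusted p under 0.05 and the highest and lowest in a comparison may be named, and for each of the 6 genes the 3 most alike by r. Genes and lists were chosen with earlier results of these data known. The labels do not say whether equal replicate numbers pair the arrays, and the numbers were used only as an alternative block. Other alternatives were pseudocounts of 1 and 100, the deposited scale, no dim probe sets, an intensity trend, only the compared groups, and each array left out.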

Additional observations from a re-analysis of the deposited data

How the results depend on the processing

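Of 84 values of the 6 genes, 36 had an unadjusted p under 0.05 or belonged to SWEET11. Of their 598 values under alternatives, 578 kept direction and side of the threshold. Signs turned for 3 of the 36, all SWEET11. In Col-0 at Agp 135° against Agp 90° the value ran between -0.95 and 0.36 with single arrays left out, and was 0.36 without both arrays of high actin ratio (added once the data had been seen). In WS at Agp 45° against Agp 135° it ran between -0.14 and 0.29, and for Col-0 against WS at Agp 90° between -0.94 and 0.36. The count of genes lower in Col-0 at Agp 90° was 1 to 2 with single arrays left out, and 1 without both arrays of high actin ratio, SWEET3 being the one lost. The pooled count at Agp 45° against Agp 90° was 0 to 1 with single arrays left out, and 1 without the 40% dimmest probe sets, SWEET11 being the one gained.

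When the fit held no other groups than those compared, SWEET13 at Agp 45° lost its ecotype call (adjusted p = 0.0599) and SWEET11 gained one (adjusted p = 0.0335). SWEET17 passed over all angles without replicate 1 of WS at Agp 90° (0.37, adjusted p = 0.0163) or replicate 3 of WS at Agp 45° (0.34, adjusted p = 0.0468), and SAG29 without replicate 2 of WS at Agp 90° (-0.35, adjusted p = 0.0306). The causes were not tested. Same-numbered arrays of different groups had residual correlations between -0.229 and 0.146 (median -0.00285, 45 pairs), and 5 of 18 arrays were closest to their own number. With the replicate number as a block, SAG29 passed for Col-0 against WS at Agp 135° (-0.54, adjusted p = 0.042) and over all angles (-0.27, adjusted p = 0.0426), and no other call of the 6 genes changed. Vascular markers and most sucrose transport genes lack a named probe set here, which limits what can be read from these genes.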

Other observations

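SWEET16, the tonoplast carrier next to SWEET17 in the family, had arrays that stood apart by tilt in Col-0 roots and not in WS roots. In Col-0 its signal was 1222, 1274 and 1241 at Agp 45°, 1285, 1531 and 1757 at Agp 135°, and 1190.4, 1055 and 601 at Agp 90°. In WS it was 1045, 899 and 808 at Agp 45°, 808, 903 and 785 at Agp 135°, and 1057, 832 and 962 at Agp 90°. All 6 tilted Col-0 arrays were above the 3 upright ones. With each tilt taken alone, 5.36% of all probe sets were separated in this direction at Agp 45° and 5.4% at Agp 135°. At Agp 45° the nearest arrays were 1222 tilted and 1190.4 upright, and 1 upright array, at 601, lay far below the rest. Values with single arrays left out were not computed for SWEET16. The log2 fold change in Col-0 was 0.44 at Agp 45° (SE 0.192, adjusted p = 0.651) and 0.72 at Agp 135° (SE 0.192, adjusted p = 0.616), and limma's interaction at Agp 135° (tilt effect in WS less that in Col-0) was -0.89 (SE 0.271, adjusted p = 0.568), so none passed.

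TST1, a carrier that loads sugars into the vacuole, had a signal of 3020 to 3688 over the 9 Col-0 arrays and 3112 to 3678 over the 9 WS arrays, with a log2 fold change of Col-0 over WS of 0.04 (adjusted p = 0.574). TST2, of the same family, had a signal of 500, 476 and 524 in WS at Agp 45°, 679.8, 545 and 618 at Agp 135°, and 612, 634 and 588 at Agp 90°. The WS arrays at Agp 45° lay below those of both other angles, with log2 fold changes of -0.25 against Agp 90° (SE 0.0779, adjusted p = 0.174) and -0.26 against Agp 135° (SE 0.0779, adjusted p = 0.225), and 8.7% and 8.74% of all probe sets were separated in this way. In Col-0 its signal was 601, 566 and 567 at Agp 45°, 583, 549.6 and 577 at Agp 135°, and 526, 561 and 552 at Agp 90°. Col-0 arrays stood above WS arrays at Agp 45° (0.16, adjusted p = 0.228), as for 13.9% of all probe sets, and below them at Agp 90° (-0.18, adjusted p = 0.155), as for 14.3%. The interaction at Agp 45° was -0.34 (SE 0.11, adjusted p = 0.546), so none of these passed limma's test.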
